A study of Mus musculus with 12 samples.

Results

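The genes described here are the receptors and accessory proteins of the calcitonin peptide family: the calcitonin receptor gene Calcr, the calcitonin receptor-like receptor gene Calcrl, and the receptor activity-modifying protein (RAMP) genes Ramp1, Ramp2 and Ramp3. They were chosen by symbol, not by level, and all 5 were found among the 46072 genes of the authors' deposited table. The study sequenced RNA of 3 myeloid cell types cultured from marrow of mice of the C57BL/6J strain, which were 6 to 8 weeks old, and set each cell type against the others. Macrophages received M-CSF, the macrophage colony-stimulating factor, at 30 ng/ml. Osteoclasts received the same dose of M-CSF plus 50 ng/ml of RANKL, the cytokine that drives osteoclast formation. Immature dendritic cells received GM-CSF, the granulocyte-macrophage colony-stimulating factor, at 20 ng/ml. Cells were differentiated for 8 to 10 days, and cells with 1 nucleus were removed from the osteoclast cultures with Accutase, per the labels. Each cell type had 4 libraries, 12 in all, from 4 marrow extractions, and the 3 cell types of an extraction came from the same mouse. All groups are cultures of unsorted marrow cells driven by added factors. Each library is therefore a mixture of the cells a culture held, and in osteoclasts of those left after this removal. The removal goes with RANKL in every osteoclast comparison, so their effects cannot be told apart.

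CALCR and CLR, the protein of Calcrl, are class B G protein-coupled receptors that signal mainly through Gs, adenylyl cyclase and cAMP. CALCR alone binds calcitonin, the thyroid hormone that halts bone resorption by osteoclasts, and together with a RAMP it binds amylin. CLR does not reach the cell surface on its own: with RAMP1 it forms the receptor of calcitonin gene-related peptide (CGRP), and with RAMP2 or RAMP3 it forms receptors of adrenomedullin.

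In the coordinates of GRCm38 with GENCODE M21, Calcr (ENSMUSG00000023964) lies on the minus strand of chromosome 6 from 3685680 to 3764714, with 17 separate exon blocks and 3912 exon bases. Calcrl (ENSMUSG00000059588) lies on the minus strand of chromosome 2 from 84330626 to 84425411, with 16 exon blocks and 4882 exon bases. Ramp1 (ENSMUSG00000034353) is on the plus strand of chromosome 1 from 91179822 to 91225196 and has 3022 exon bases. Ramp2 (ENSMUSG00000001240) and Ramp3 (ENSMUSG00000041046) are both on the plus strand of chromosome 11, from 101246028 to 101259546 with 3301 exon bases and from 6658521 to 6677475 with 1380 exon bases. Ramp2 shares 1103 exon bases on the same strand with Vps25, a gene of the endosomal sorting machinery with authors' means of 1979, 1784 and 1972 in osteoclasts, macrophages and dendritic cells per the authors' deposited table. No source used here says how reads in the shared bases were assigned, and the values of Ramp2 are therefore uncertain.

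The promoters of the 3 members with the steepest differences between cell types are shown because those differences are the main content of the values below. The sequences are RefSeq promoter windows on GRCm38.p6, cut at the start of any annotated exon and written 5′ to 3′ on the strand of the gene. RefSeq gave windows for 4 of the 5 members, with Ramp2 the exception. RefSeq holds 2 start sites for Calcr. Capitals mark the only motif match found.
Calcr, start inside the annotated gene, chr6:3763631-3763873, minus strand: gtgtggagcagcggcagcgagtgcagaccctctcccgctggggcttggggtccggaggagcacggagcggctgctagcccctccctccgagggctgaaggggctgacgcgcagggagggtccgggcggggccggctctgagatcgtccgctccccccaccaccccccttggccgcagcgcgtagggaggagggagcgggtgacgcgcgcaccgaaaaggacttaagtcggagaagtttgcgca
Calcr, start at the outer end of the gene, chr6:3764715-3764963, minus strand: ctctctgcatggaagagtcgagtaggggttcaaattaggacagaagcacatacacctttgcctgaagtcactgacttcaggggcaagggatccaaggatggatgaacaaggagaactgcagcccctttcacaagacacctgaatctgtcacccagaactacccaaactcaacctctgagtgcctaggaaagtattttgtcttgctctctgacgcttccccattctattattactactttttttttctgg
Ramp1, chr1:91179572-91179821, plus strand: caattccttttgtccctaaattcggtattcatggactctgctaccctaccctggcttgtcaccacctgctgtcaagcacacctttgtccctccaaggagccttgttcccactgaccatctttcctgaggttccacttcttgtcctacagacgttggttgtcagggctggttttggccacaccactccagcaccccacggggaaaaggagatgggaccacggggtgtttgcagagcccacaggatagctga
Ramp3, chr11:6658283-6658520, plus strand: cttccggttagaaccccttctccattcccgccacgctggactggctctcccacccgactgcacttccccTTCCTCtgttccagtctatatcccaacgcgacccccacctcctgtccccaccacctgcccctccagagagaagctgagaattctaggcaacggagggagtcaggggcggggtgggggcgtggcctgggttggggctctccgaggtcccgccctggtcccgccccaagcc

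The 2 Calcr windows differed in base composition. Over the 250 upstream bases searched, the inner start had 70.8% G and C bases and 24 CpG sites, and the outer start had 46% and 2 CpG sites. The Ramp3 window held 65.2% and 13 CpG sites, and the Ramp1 window 54% and 4. Both strands of these windows and of the Calcrl window were searched for 6 short motifs. The PU.1 core GAGGAA had a match in 23.3% of all 32851 windows, the NFAT core TGGAAA in 18.6%, the AP-1 motif TGANTCA in 6.75%, the E-box CACGTG in 6.02%, the core of the cAMP response element, TGACGT, in 6.47% and the STAT motif TTCNNNGAA in 7.02%. The single match among the members was a PU.1 core in Ramp3, read as TTCCTC on the printed strand, from 181 to 176 bases before the start site. A match is only a run of letters, and its absence from a window says nothing of the factor.

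Values are reads divided by a size factor for the depth of each library, called normalised reads here, and the authors' mean is their average over the 4 libraries of a cell type. The authors' means summed over genes to 2.42e+07 in osteoclasts against 2.5e+07 in macrophages and 2.77e+07 in dendritic cells, and the size factors ran from 0.975 to 1.04. A mean of whole reads fixes the reads behind it, so the reads of each library could be recovered for genes of low and middle level. Recovered libraries are called a to d within a cell type in order of size factor. They carry no replicate number, and library a of different cell types need not come from the same mouse. A gene is called when the authors' DESeq2 adjusted p was under 0.05; they adjusted over the genes left by their filter, 17822 to 21217 per comparison. The ± after a log2 fold change is the standard error implied by that p-value. For every member these fold changes were smaller in size than the log2 ratio of the means. For Calcr in osteoclasts over macrophages they were 9.69 and 11.60. Ratios of means are given apart, and the ± does not apply to them. The labelled cell types were checked against marker genes, by summed means of the authors' deposited table. The 10 osteoclast markers summed to 334893 in osteoclasts against 6380 in macrophages and 41787 in the dendritic cultures. Atp6v0d2 (20465 against 17755), Dcstamp (7666 against 4231) and Ocstamp (2583 against 1589) among them were higher in dendritic cells than in osteoclasts. The 7 macrophage markers summed to 171809 in macrophages against 78234 in osteoclasts and 51209 in dendritic cells. Only Fcgr1 among them was higher in another cell type, with 2944 in dendritic cells against 1812 in macrophages. The 7 dendritic cell markers summed to 402981 in dendritic cells against 8486 in osteoclasts and 4982 in macrophages, with Cd209a at 0 in osteoclasts.

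**Figure D1:**
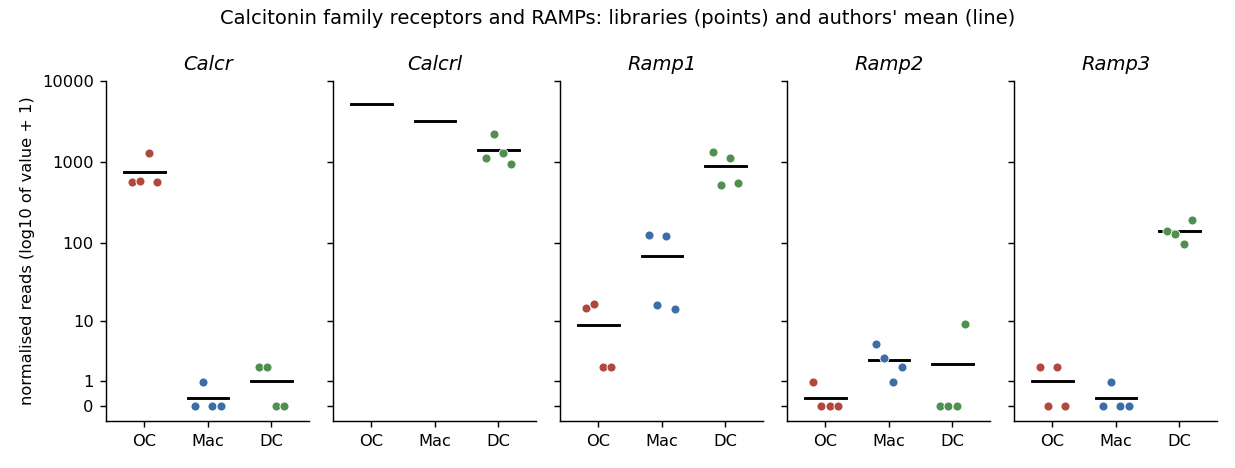
Normalised reads of the 5 members on a log10(value + 1) axis in osteoclasts (OC), macrophages (Mac) and dendritic cells (DC); points are the 4 recovered libraries and lines the authors' mean. Calcr is high in osteoclasts only, between 568 and 1292, while Ramp1 and Ramp3 are highest in dendritic cells; for Calcrl the libraries of osteoclasts and macrophages could not be recovered and only their means are drawn.

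The receptor genes were both highest in osteoclasts, and 2 of the 3 RAMP genes were highest in dendritic cells. Calcr was close to absent outside osteoclasts, Calcrl was present in every cell type and graded, and the means of Ramp1 ran the other way. For Ramp1 the libraries of osteoclasts and macrophages overlapped. Of the 5 members, 3 were called between osteoclasts and macrophages (2 higher and 1 lower in osteoclasts), where 29.3% of 17822 tested genes were called, 14.5% higher and 14.7% lower. Between osteoclasts and dendritic cells 4 of 5 were called (2 higher and 2 lower in osteoclasts), where 36.9% of 21217 genes were called, 16.8% higher and 20.1% lower. Between dendritic cells and macrophages 3 of 5 were called (2 higher and 1 lower in dendritic cells), where 36.7% of 20730 genes were called, 20.3% higher and 16.4% lower. All 5 members had an adjusted p in each comparison. Their median log2 fold changes were 0.66, −1.60 and 0.87, beside −0.03, −0.05 and 0.05 over all tested genes. The comparisons share libraries and are therefore not independent. Where the RNA of many cells is measured together, fewer cells expressing a gene and less RNA per cell cannot be told apart.

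Calcr had 578, 583, 1292 and 568 normalised reads in osteoclast libraries a to d (SD 358, n = 4, 3023 reads). In macrophages it had 0, 0.974, 0 and 0, which is 1 read in 4 libraries. In dendritic cells it had 2.03, 2.04, 0 and 0, which is 4 reads. Library c of the osteoclasts stood above the other osteoclast libraries, and every osteoclast library was far above every library of the other cell types. The osteoclast mean was 755, and 577 without library c. Of the reads of Calcr, summed as means over the 3 cell types, osteoclasts held 99.8%.

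The authors' deposited table gave Calcr a log2 fold change of 9.69 ± 0.72 over macrophages, with a DESeq2 adjusted p of 7.52e-39. Over dendritic cells it was 8.82 ± 0.61, with an adjusted p of 4.9e-45, per the authors' deposited table. As a ratio of means Calcr was 3102-fold higher in osteoclasts than in macrophages, with an exact 95% counting interval from 556 to 122576. The ratio over dendritic cells was 742-fold. An exact two-sided permutation test of 4 against 4 libraries gave p = 0.0286 for each, the smallest an unpaired test of this size allows. The test takes the libraries as unpaired, although the cell types of an extraction came from the same mouse. Of the 12 permutation tests of the members none passes 0.05 after Benjamini-Hochberg adjustment, which takes 0.0286 to 0.0571. The libraries of osteoclasts and macrophages did not overlap for Calcr, as was so for 32.7% of 8221 genes with recovered reads and a mean of at least 10, and those of osteoclasts and dendritic cells did not overlap either (46.2% of 8705 genes). Dendritic cells and macrophages could not be ordered: the log2 fold change was 0.87 ± 0.84 with an adjusted p of 0.471 per the authors' deposited table. The macrophage mean of 0.243 becomes 0 without library b, and the dendritic mean of 1.02 becomes 0.678 without library b.

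Calcrl encodes the receptor shared by CGRP and adrenomedullin. The authors' deposited table gave it a mean of 5170 in osteoclasts against 3252 in macrophages and 1400 in dendritic cells. Its reads could be recovered in dendritic cells only, as 1141, 2204, 1297 and 960 in libraries a to d (SD 553, n = 4). Library b was the highest of these, and the dendritic mean without it was 1133. All 3 steps of the order were called per the authors' deposited table. Osteoclasts were above macrophages by 0.66 ± 0.25 on the log2 scale (DESeq2 adjusted p = 0.0313) per the authors' deposited table. Over the other settings tried, which reuse the authors' fold change and its error, that adjusted p was 0.0193 to 0.0456. Osteoclasts were above dendritic cells by 1.86 ± 0.25 (adjusted p = 1.36e-12) per the authors' deposited table. Dendritic cells were below macrophages with a log2 fold change of −1.20 ± 0.25 (adjusted p = 9.94e-06) per the authors' deposited table. As ratios of means Calcrl was 1.59-fold higher in osteoclasts than in macrophages and 3.69-fold higher than in dendritic cells. The call against macrophages was not made at an adjusted p under 0.01, at which 20.9% of all tested genes passed.

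Ramp1, the partner of CLR in the CGRP receptor, ran against its receptor. Its libraries a to d had 14.9, 16.9, 2.00 and 2.02 normalised reads in osteoclasts (SD 8.06, n = 4, 36 reads). They had 126, 16.6, 123 and 14.7 in macrophages (SD 62.7, n = 4, 289 reads). In dendritic cells they had 1353, 527, 1115 and 553 (SD 412, n = 4, 3479 reads). Each cell type split into a higher and a lower pair of libraries for Ramp1. The dendritic libraries lay above all others, while the upper osteoclast pair lay at the level of the lower macrophage pair.

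In the authors' deposited table Ramp1 was higher in dendritic cells than in macrophages by 3.22 ± 0.74 (DESeq2 adjusted p = 7.72e-05). Its log2 fold change in osteoclasts against dendritic cells was −5.65 ± 0.75 (adjusted p = 8.25e-13) per the authors' deposited table. As ratios of means the dendritic level was 12.7-fold that of macrophages and 99.1-fold that of osteoclasts, and dendritic cells held 91.8% of the summed means. The exact two-sided permutation test gave p = 0.0286 for each of these differences. For osteoclasts against macrophages the log2 fold change was −2.43 ± 0.76 with an adjusted p of 0.00657 per the authors' deposited table. The libraries overlapped, however, and the exact permutation test gave p = 0.143. With limma on the recovered reads the log2 fold change was −2.81 and the adjusted p 0.127, so the call of a lower Ramp1 in osteoclasts than in macrophages rests on the authors' test.

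The pairing of macrophage libraries seen in Ramp1 was present in some other genes and not in others. Libraries a and c were also the higher ones for Vipr1, a receptor of vasoactive intestinal peptide (113, 37.0, 136 and 33.4), and for Grk3, a receptor kinase (605, 256, 665 and 250). The class II antigen presentation gene H2-Ab1 had 591, 142, 1097 and 121, and the fusion receptor gene Dcstamp 149, 35.1, 384 and 24.6. Ccl17, a chemokine of dendritic cells, did not follow this pairing, with 69.0, 63.3, 63.3 and 63.9, nor did the osteoclast proteases and enzymes Ctsk (132, 140, 131 and 146), Acp5 (173, 300, 279 and 200) and Mmp9 (343, 241, 255 and 398). The neutrophil genes Ngp (2.88, 34.1, 2.92 and 26.5) and Mmp8 (188, 694, 169 and 309) ran the opposite way, lower in libraries a and c. Flt3 and Cd209a, the dendritic markers recovered in every cell type, summed to between 0.974 and 4.79 in the macrophage libraries and between 98.0 and 226 in the dendritic ones. The part of dendritic cells in the macrophage values of Ramp1 was not tested. Apart from Ramp1, these genes were chosen from the lists after their values were seen.

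Ramp3, a partner of CLR in an adrenomedullin receptor, was nearly confined to dendritic cells in these 12 libraries. It had 142, 130, 98.0 and 192 normalised reads in dendritic libraries a to d (SD 38.9, n = 4, 551 reads). Osteoclasts had 1.99, 0, 2.00 and 0, or 4 reads, and macrophages 0, 0.974, 0 and 0, or 1 read. Every dendritic library was far above every other library, and dendritic cells held 99.1% of the summed means. In the authors' deposited table the log2 fold change was 7.57 ± 0.74 for dendritic cells over macrophages (adjusted p = 5.58e-23). In osteoclasts against dendritic cells it was −6.64 ± 0.62 (adjusted p = 1.91e-25) per the authors' deposited table.

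As ratios of means Ramp3 was 141-fold higher in dendritic cells than in osteoclasts, and 578-fold higher than in macrophages with an exact 95% interval from 103 to 22856. The exact permutation p was 0.0286 for both. Of the 4 members with recovered libraries, Ramp1 and Ramp3 had every dendritic library above every macrophage and osteoclast library. For dendritic cells against macrophages 39.9% of 8740 genes had libraries that did not overlap, in either direction. Osteoclasts and macrophages could not be ordered for Ramp3, with a log2 fold change of 0.93 ± 0.87 and an adjusted p of 0.471 per the authors' deposited table. Without library c the osteoclast mean went from 0.997 to 0.662, and without library b the macrophage mean went from 0.243 to 0. Ramp3 shares 101 exon bases with Gm11978, a pseudogene on the opposite strand that is listed at 0 in every cell type.

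Ramp2, the other adrenomedullin partner of CLR and the main one in vessels, was barely detected. Osteoclasts had 0.993, 0, 0 and 0 normalised reads, which is 1 read, and macrophages 4.79, 2.92, 0.974 and 1.97, which is 11 reads. Dendritic cells had 0, 0, 0 and 9.23, so all 9 dendritic reads came from library d. No difference of Ramp2 was called per the authors' deposited table: the adjusted p was 0.215 for osteoclasts against macrophages, 0.242 for osteoclasts against dendritic cells and 0.937 for dendritic cells against macrophages. As a ratio of means macrophages were 10.7-fold above osteoclasts, with an exact 95% interval from 1.56 to 462 that covers counting error only. The exact permutation p of that difference was 0.0571. The dendritic mean of 2.31 becomes 0 without library d, and the osteoclast mean of 0.248 becomes 0 without library a.

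**Figure D2:**
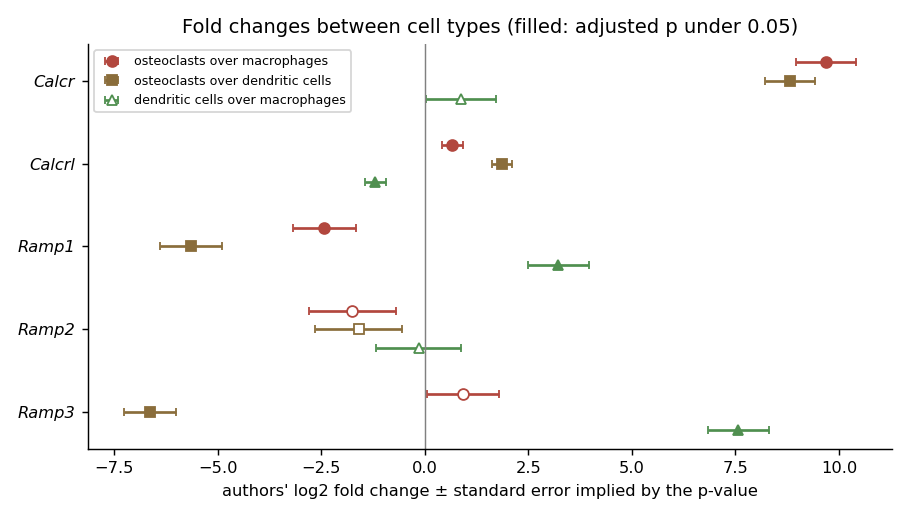
The authors' log2 fold changes of the 5 members (x axis) in the 3 comparisons, with bars for the standard error implied by the p-value and filled symbols for adjusted p under 0.05. The receptors Calcr and Calcrl lie to the right in both osteoclast comparisons, Ramp1 lies to the left in both, and every symbol of Ramp2 is open.

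Per exon length the balance of receptor and RAMP transcripts differed between the cell types. In osteoclasts the authors' deposited table gives 1059 normalised reads per kilobase of exon for Calcrl, 193 for Calcr and 3.76 for the 3 RAMP genes together. Calcr thus stood at 0.182 of Calcrl per kilobase, and Calcrl at 282 times the summed RAMPs. In macrophages the authors' deposited table gives 666 per kilobase for Calcrl and 24.1 for the RAMPs, a ratio of 27.6, with Ramp1 at 23.1 the main RAMP. In dendritic cells Calcrl was at 287 per kilobase and the RAMPs at 396, of which Ramp1 made up 294 and Ramp3 102, per the authors' deposited table. The order of receptor over RAMP was therefore turned round in dendritic cells as a mean, with 1.38 RAMP transcripts per Calcrl transcript on this scale. By library this ratio was 2.36, 0.596, 1.66 and 1.65 (mean 1.57, SD 0.727, n = 4). Library b, which had the highest Calcrl and the lowest Ramp1, was the exception with less RAMP than Calcrl. These lengths are of all annotated exons, which can exceed the length of the transcripts in the cells, and RNA levels are not protein levels.

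**Figure D3:**
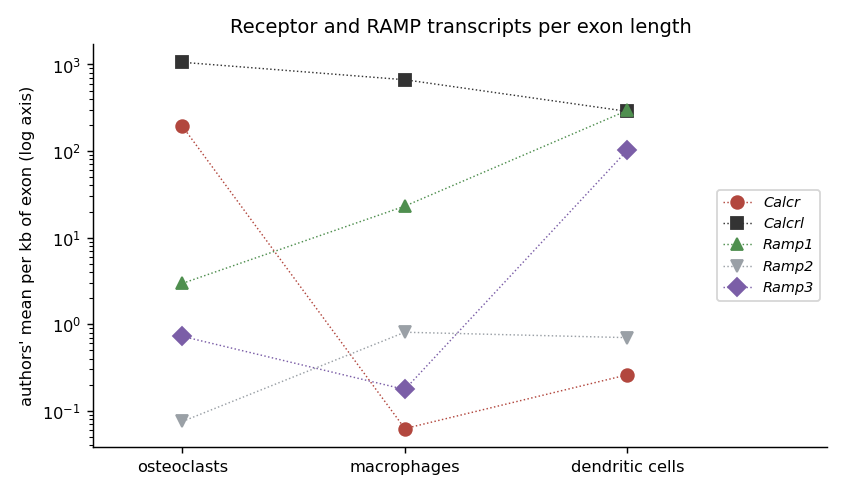
The authors' means divided by exon length in kilobases on a log axis, by cell type; dotted lines join the values of a gene and mark no trend. Calcrl falls from 1059 in osteoclasts to 287 in dendritic cells while Ramp1 climbs from 2.96 to 294, so that the symbols meet in dendritic cells.

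The peptide ligands were next examined as a list of 5 genes. Calca, which encodes calcitonin and alpha-CGRP, and Iapp, which encodes amylin, had 0 reads in all 12 libraries, which allows up to 3 reads over the 4 libraries of a cell type. Calcb encodes beta-CGRP, and Adm and Adm2 encode adrenomedullin and its relative intermedin. These 3 genes were tested, and all 3 were higher in dendritic cells than in macrophages and than in osteoclasts. Between osteoclasts and macrophages DESeq2 called 0 of 3 (0 also at an unadjusted p under 0.05). Adm2 had 0 reads in both of these cell types, and Calcb 1 read in osteoclasts and 2 in macrophages. These counts were too few for a call. The list's median log2 fold change was 4.34 for dendritic cells over macrophages (0.05 over all genes) and −4.33 for osteoclasts against dendritic cells (−0.05).

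Adm had 47.8, 16.3, 145 and 88.2 normalised reads in the dendritic libraries (SD 55.5, n = 4). It had 2.98, 0.994, 5.01 and 4.03 in osteoclasts, and 0.959, 2.92, 0.974 and 5.90 in macrophages. The lowest dendritic library was still above the highest of the others. The log2 fold change for dendritic cells over macrophages was 4.34 ± 0.65 (adjusted p = 2.17e-10), and for osteoclasts against dendritic cells −4.11 ± 0.64 (adjusted p = 1.14e-09), per the authors' deposited table. Without library d the macrophage mean of 2.69 becomes 1.62.

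Calcb was low but even in dendritic cells, with 14.2, 11.2, 12.2 and 11.3 normalised reads (SD 1.42, n = 4, 48 reads). It had 2 reads in macrophages, both in library b, and 1 read in osteoclasts, in library d, and each of these means becomes 0 without that library. In the authors' deposited table dendritic cells were above macrophages by 3.93 ± 0.82 (adjusted p = 9.31e-06). As a ratio of means this was 25.1-fold, with an exact 95% interval from 6.59 to 214. Adm2 had 6.10, 2.04, 9.19 and 13.3 in dendritic cells (SD 4.78, n = 4, 30 reads) and 0 reads in the other 8 libraries. Against the limit of 3 reads over 4 libraries it was at least 10.0-fold higher in dendritic cells than in either other cell type.

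**Figure D4:**
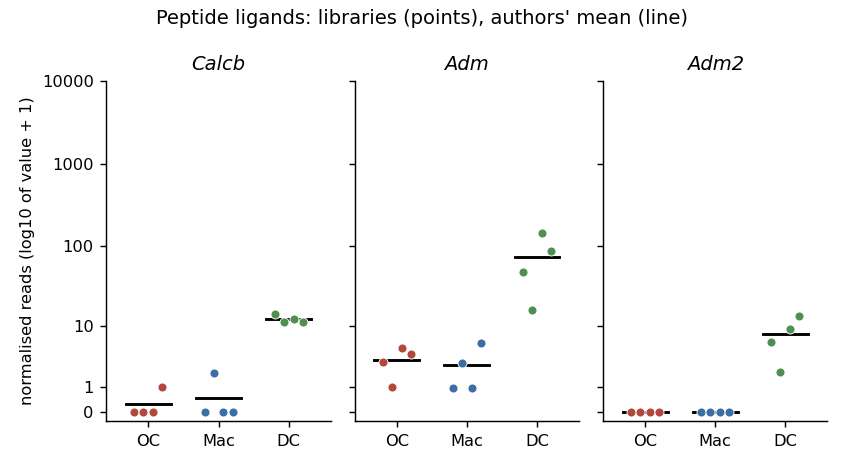
Normalised reads of the 3 detected peptide ligand genes on a log10(value + 1) axis, with points for the 4 recovered libraries and lines for the authors' mean. Dendritic cells (DC) lie above osteoclasts (OC) and macrophages (Mac) for Calcb, Adm and Adm2, and Adm2 is at 0 in both other cell types.

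Proteins that assist the receptors or remove their ligands showed no common direction. Crcp, which encodes the CGRP receptor component that couples CLR to its G protein, had authors' means of 878, 770 and 882 in osteoclasts, macrophages and dendritic cells, with an adjusted p of 0.176 for osteoclasts against macrophages, per the authors' deposited table. Ece1, an endothelin-converting protease that also acts on internalised CGRP receptors, was the 1 of 6 tested genes of this list lower in osteoclasts than in macrophages, and 0 were higher. Its log2 fold change was −1.58 ± 0.18 (means 625 and 1885, adjusted p = 4.13e-17) per the authors' deposited table. Ackr3, an atypical chemokine receptor that takes up adrenomedullin, had means of 45.2 in dendritic cells and 1.25 in osteoclasts and was listed at 0 in macrophages, per the authors' deposited table. It was called for dendritic cells over macrophages (4.97 ± 1.03, adjusted p = 8.15e-06) per the authors' deposited table. Against dendritic cells osteoclasts had 1 of 6 genes of this list higher (Ide) and 2 lower (Ackr3 and Ece1). Crcp and Ackr3 were picked after their values were seen.

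Other class B receptors were called in both directions. Of 13 listed genes 6 had an adjusted p between osteoclasts and macrophages, and of these 1 was higher in osteoclasts and 2 were lower. Vipr1 and Vipr2, receptors of vasoactive intestinal peptide that can also bind RAMPs, had log2 fold changes of −1.95 ± 0.43 (adjusted p = 6.8e-05) and −1.30 ± 0.48 (adjusted p = 0.0271) per the authors' deposited table. Glp2r, the receptor of glucagon-like peptide 2, was higher by 1.93 ± 0.60 (adjusted p = 0.00638), from 46 reads in osteoclasts and 11 in macrophages, per the authors' deposited table. Between osteoclasts and dendritic cells 0 of 7 were higher and 2 were lower, again Vipr1 and Vipr2. Between dendritic cells and macrophages DESeq2 called 0 of 7, and 0 had an unadjusted p under 0.05. Casr, the calcium-sensing receptor, which is not of class B but is known to bind RAMPs, was listed at 0 in osteoclasts and macrophages and reached a mean of 5.61 in dendritic cells per the authors' deposited table. Casr and Gipr were picked after their values were seen.

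Downstream of the receptors, genes of the cAMP pathway were called in both directions. Between osteoclasts and macrophages 2 of 10 tested G protein and adenylyl cyclase genes were higher and 3 lower. Adcy3, a cyclase, had means of 1109 in osteoclasts and 285 in macrophages and was higher by 1.93 ± 0.28 (adjusted p = 4.2e-10) per the authors' deposited table. For Adcy6, another cyclase, the authors' deposited table gave means of 2.00 (osteoclasts), 9.22 (macrophages) and 233 (dendritic cells). Of 11 protein kinase A and effector genes 3 were higher and 4 lower. Prkacb, a catalytic subunit of protein kinase A, had a log2 fold change of −1.01 ± 0.10 and Rapgef3, the cAMP sensor EPAC, of −2.72 ± 0.32 per the authors' deposited table.

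Of 11 tested phosphodiesterases, which break down cAMP or cGMP, 3 were higher and 6 lower in osteoclasts than in macrophages, with a median log2 fold change of −0.52 beside −0.03 over all genes. Pde3b, with means of 136 and 551, had the lowest of them at −1.95 ± 0.38 per the authors' deposited table. Among 6 tested genes of receptor desensitisation 1 was higher and 2 were lower. The higher gene was Grk3, a kinase that switches off active receptors, with a mean of 3970 in osteoclasts against 444 in macrophages and 1601 in dendritic cells per the authors' deposited table. Its log2 fold change over macrophages was 3.09 ± 0.31 (adjusted p = 1.02e-20) per the authors' deposited table, while that of Arrb2, which encodes beta-arrestin 2, was −0.95 ± 0.16. Among 9 genes that respond to cAMP 2 were higher, Fos (1.53 ± 0.41) and Fosl2 (1.76 ± 0.28), and 1 was lower, Per1 (−0.62 ± 0.22), per the authors' deposited table. Fos and Fosl2 are also components of AP-1, a factor used in osteoclast formation.

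Against dendritic cells the same lists were again mixed. Osteoclasts had 3 of 10 G protein and cyclase genes higher and 2 lower, 2 of 11 kinase A and effector genes higher and 1 lower, and 2 of 12 phosphodiesterases higher and 4 lower. They had 1 of 6 desensitisation genes higher and 1 lower, and 3 of 9 response genes higher and 2 lower. Adcy3 was called in the same direction as against macrophages, with 2.07 ± 0.29 (adjusted p = 5.13e-12), per the authors' deposited table. Adcy4, a cyclase higher in osteoclasts than in macrophages by 3.02 ± 0.67, was lower than in dendritic cells with −1.83 ± 0.48 per the authors' deposited table. Larger differences were present in both directions, in genes picked after their values were seen. Adcy2, a cyclase, had a log2 fold change of 5.54 ± 0.69 and Nr4a3, a response gene, of −9.21 ± 0.46 per the authors' deposited table.

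In dendritic cells against macrophages 2 of 10 G protein and cyclase genes were higher and 3 lower, 0 of 11 kinase A and effector genes were higher and 3 lower, and 3 of 12 phosphodiesterases were higher and 5 lower. For desensitisation the counts were 2 higher and 2 lower of 6, and for response genes 3 higher and 1 lower of 9.

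**Figure D5:**
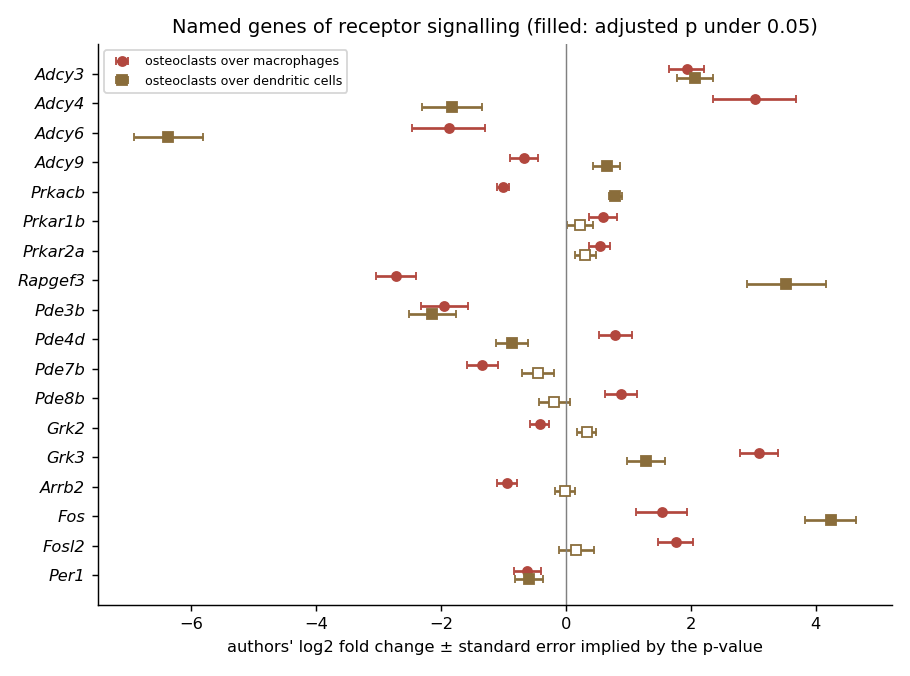
The authors' log2 fold changes of the named signalling genes in osteoclasts over macrophages (circles) and over dendritic cells (squares), with bars for the implied standard error and filled symbols for adjusted p under 0.05. Grk3, Adcy3 and Fos lie to the right in both comparisons, and of the genes called in both, Adcy4, Adcy9, Prkacb, Rapgef3 and Pde4d change side.

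The genes nearest to each member in pattern were found from the share of the summed means held by each of the 3 cell types, as the Euclidean distance between shares. Candidates had a highest mean within a factor of 2 of the member's. Nearest to Calcr among 4047 genes were Steap4 (distance 0.00128), a metalloreductase with authors' means of 859, 0.727 and 0.256 in osteoclasts, macrophages and dendritic cells, and Mst1r (0.00338), a receptor tyrosine kinase with 974, 2.21 and 2.04, per the authors' deposited table. Akap6, Vegfc and Dclk1 came next, at 0.0365 to 0.0414. Osteoclast library c, the highest for Calcr, was also the highest for Steap4, with 429, 616, 1734 and 658 in libraries a to d, and for Mst1r, with 989, 785, 1544 and 577.

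Nearest to Calcrl among 2219 genes were Rasa4 (0.0148), Ndufa4, Slc12a7, Gnptab and Pdgfb (0.0348). Nearest to Ramp1 among 4211 were Kcna3 (0.0158), a potassium channel with means of 12.0, 39.2 and 509 per the authors' deposited table, then Haao, Clec4b1, Cbfa2t3 and AW112010 (0.0216). Nearest to Ramp3 among 1729 were Hsd11b2 (0.00174), with means of 1.49, 0.485 and 193 per the authors' deposited table, then Il18r1, Stfa2, Sept1 and Aqp3 (0.00406). A likeness over 3 cell types is a coarse measure.

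Marker lists of mast cells and basophils, of neutrophils and of T and NK cells were highest in dendritic cells, as were Ramp1, Ramp3 and the detected ligand genes. This likeness is one of means over 3 cell types. The B cell list, given below, was highest in macrophages. The 6 mast cell and basophil markers summed to between 465 and 895 normalised reads in the dendritic libraries, against summed means of 10.5 in osteoclasts and 6.56 in macrophages per the authors' deposited table. Cpa3, the highest of them, had 403, 386, 257 and 348 in dendritic cells, and 4 of the 6 were at 0 in osteoclasts and 2 in macrophages. The 6 neutrophil markers had summed means of 28428 in dendritic cells, 481 in osteoclasts and 404 in macrophages per the authors' deposited table. The 4 T and NK cell markers were at 0 in osteoclasts and macrophages and summed to between 3.05 and 14.4 in dendritic cells. The part of such cells in the dendritic values of the members was not tested.

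Endothelial cells are a known site of Calcrl and Ramp2, so their markers were set beside both. The 9 recovered endothelial markers summed to between 211 and 455 in osteoclasts, 165 and 378 in macrophages and 400 and 1201 in dendritic cells. The markers did not run together: Pecam1 had means of 7.24, 21.3 and 495 in osteoclasts, macrophages and dendritic cells, while Kdr had 280, 221 and 75, the same order as Calcrl, per the authors' deposited table. Sox17 was at 0 in every cell type and Tek and Emcn at 0 in osteoclasts. The tenth marker, Vwf, had means of 2258, 1990 and 3170 in osteoclasts, macrophages and dendritic cells per the authors' deposited table. In dendritic library d, which held all dendritic reads of Ramp2, the 9 markers summed to 634. The 8 stromal and osteoblast markers summed to means of 390, 338 and 1073 in osteoclasts, macrophages and dendritic cells, nearly all of it Runx2, per the authors' deposited table. The 4 B cell markers summed to 60.6, 930 and 326, nearly all of it Ighm, per the authors' deposited table. The part of these cells in the values of Calcrl and Ramp2 was not tested.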

How the data were processed

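Messenger RNA was sequenced as single reads of 50 bases from stranded libraries, per the labels and the series' design text. The submitters' processing notes name GRCm38 as the build, and DESeq2 2.13, Cufflinks 2.1.1, TopHat2, Bowtie2 and bcl2fastq as tools. The authors' counting rule, annotation and strand setting are not given in those sources. Per the file headers the authors deposited, for each pair of cell types, a mean of normalised read counts per cell type, and a log2 fold change with its raw and adjusted p-value, for 46072 genes. A symbol matched 45138 of them. The members, lists and marker lists were chosen with earlier results of these data known.

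Calls were taken from the authors' adjusted p-values at a threshold of 0.05. A standard error is the fold change over the normal quantile of its p-value, which takes the test as two-sided and normal. Whole reads of each library were recovered from the 15 digits of the means, up to a mean of 1000 (1500 for members) and only where 1 solution existed. On simulated reads 1000, 993 and 998 of 1000 genes were recovered for osteoclasts, macrophages and dendritic cells, and 0 wrongly. The simulation used the size factors of the recovery itself and means up to 1000. Error in those factors, and the recovery of Calcrl in dendritic cells above that mean, were therefore not tested. The recovery gave 1 solution for at least 99.9% of genes at or under the limit. Permutation tests were exact, unpaired and two-sided over 4 against 4 libraries, 12 in all, with p-values given unadjusted unless stated. Intervals on ratios and the limit of 3 reads cover counting error only. The authors' deposited table has no column per sample, and 0 of its columns of values were left unused.

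Named genes are the members, every ligand, up to 4 genes per list (the 2 smallest p-values in each direction for osteoclasts against macrophages, or the 2 highest where none was called) and the 5 nearest genes by pattern. Other genes, among them single genes of the marker lists, fall outside this rule. They were picked after their values were seen, even where this is not marked. The planned count tests on libraries (edgeR, DESeq2, TMM scaling) were not run, because the table holds means; limma 3.58.1 (voom) on recovered reads was added after the data were seen, for 8677 genes. Python 3.11.15, scipy 1.17.1 and R 4.3.3 were used.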

Additional observations from a re-analysis of the deposited data

Results flagged for a closer look

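Values were flagged where the highest or lowest of 4 libraries stood apart from the rest by more than Dixon's 95% critical value, taken as its gap to the nearest library over the whole range. Chance flags about 1 in 20 groups in this way, and groups of very few reads are flagged by a single read. Among the members, library c of the osteoclasts was apart for Calcr, with 1292 normalised reads and a gap of 0.979 of the range. Library d of the dendritic cells was apart for Ramp2, with 9.23 where the other libraries had 0. Lone reads flagged Calcr and Ramp3 in macrophage library b (0.974 each) and Ramp2 in osteoclast library a (0.993). Among the ligands, Calcb was flagged for its 2 reads in macrophage library b (1.95) and its 1 read in osteoclast library d (1.01).

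Other named genes were flagged too. In dendritic cells these were Adcy4 in library d (75.9), Prkar1b in library a (82.4), Rapgef3 in library b (the lowest, 0) and Steap4 in library d (1.03). In macrophages they were Steap4 in library d (the lowest, 0), Mst1r in library d (6.88) and Ccl17 in library a (69.0). In osteoclasts Cpa3 was flagged in library c (1.00).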

How the results depend on the processing

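Under other settings, not counting left-out libraries, 82 recomputed adjusted p-values kept their direction and their side of the threshold and 3 did not. Most of these reuse the authors' p-values or implied errors, adjusted over other genes or after a shift of all fold changes. Agreement of those was nearly fixed in advance, and only the limma fits used the reads of each library. The 15 log2 ratios of means, which have no p, kept their direction. Of 15 recomputed counts of called members 14 were equal. The 3 lost calls concern Ramp1 in osteoclasts against macrophages, called by the authors at an adjusted p of 0.00657: with limma on recovered reads it was 0.127, with genes down to a mean of 1 in the higher cell type 0.146, and with median-ratio scaling 0.130. The direction was the same in each, with log2 fold changes of −2.81, −2.81 and −2.78 against −2.43, and the cause was not tested. Leaving out each library in turn under limma gave adjusted p-values of 0.0800 to 0.257 for it, with 0 of 8 under 0.05. The same range was 1.53e-06 to 0.000399 for Calcr and 0.353 to 0.798 for Ramp3 in osteoclasts against macrophages. For osteoclasts against dendritic cells it was 1.01e-06 to 6.17e-05 for Calcr, 0.000235 to 0.00122 for Ramp1 and 1.54e-06 to 1.36e-05 for Ramp3. For dendritic cells against macrophages it was 0.558 to 0.863 for Calcr, 0.00022 to 0.00106 for Ramp1 and 1.03e-06 to 1.27e-05 for Ramp3.

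The limma settings were chosen after seeing the data. The count that moved was at an adjusted p under 0.01, where 2 members in place of 3 were called between osteoclasts and macrophages, with Calcrl lost. Making the totals of the cell types equal shifted all log2 fold changes by 0.05, 0.19 and −0.15 in osteoclasts against macrophages, osteoclasts against dendritic cells and dendritic cells against macrophages. Fits with edgeR, DESeq2, TMM scaling or a replicate block were not run. No paired analysis was possible because the deposited means carry no replicate numbers. Calcrl could not be refitted, since its reads were not recovered in osteoclasts and macrophages. At this depth differences of Ramp2, and of Calcr and Ramp3 between the cell types where they had 1 to 4 reads, could not be resolved.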
